A study of Mus musculus with 283 samples.

Results

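Lymph nodes draining TC1 tumours were set against lymph nodes of mice without a tumour. TC1 is a mouse lung epithelial line transformed with oncogenes, and it was grown under the skin of the back of C57BL/6J females, whose immune system is intact. The comparison held 5 arrays of draining nodes, from animals 19, 20, 22, 23 and 24, and 4 arrays labelled as nodes of tumour-free C57BL/6J females, from animals 1 to 4. These 9 arrays belong to 92 node arrays and 283 arrays in all, and each reports 15224 genes with a single symbol. Animal 5 of the tumour-free females was left out because its node was rich in fat. The comparison itself was chosen by the log2 values of these node arrays, Il33 and Ccl12 among them, and the fat genes chose which tumour-free arrays entered. The labels name no engineered allele, the ages of the animals were not given, and the labels do not say which node was taken from a tumour-free animal. The spleens of the same animals, TC1 tumours (5), nodes of tumour-free C57BL/6J males (5), and nodes of C57BL/6J females with 4 other families of tumour served for comparison. These were LL2 (Lewis lung carcinoma, 5 nodes), MC38 (colon carcinoma, 7), EL4 (T cell lymphoma, 5) and 4 stocks of B16 melanoma (20). Estimates of spread and ranks of means drew on 18 groups of nodes, and correlations on all 92 node arrays. They also include nodes of tumour-free BALB/c and DBA females and of mice with 4T1, CT26, Renca, P815 or TRAMPC tumours. The strain of the mice with these added tumours is not stated here, so the ranks do not separate strain from tumour.

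A lymph node filters the lymph of the tissue it drains. Reticular fibroblasts and lymphatic endothelium form its scaffold, and B and T cells occupy separate areas within it. The spleen filters blood instead, and in mice it also makes red cells and platelets, so that erythroid, platelet and neutrophil genes distinguish it from a node. The genes named as markers of this comparison are Il33, an alarmin held in the nucleus of stromal and endothelial cells, and Ccl12, a chemokine that attracts monocytes through the receptor Ccr2. Both were named with their difference in these arrays known, so their values are a description without a test.

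Some arrays of the tumour-free females had levels of spleen and node genes that went against their labels. Why they did was not tested. Spleens and nodes of LL2, MC38 and EL4 mice gave the 20 genes most above and the 20 most below in spleen, taken outside the genes called between TC1 and tumour-free nodes. The mean of the spleen genes minus the mean of the node genes, on the log2 scale, lay between -2.01 and -1.73 on the 5 TC1 node arrays and between 3.12 and 3.63 on the 5 TC1 spleen arrays. It ran from -2.27 to -1.45 on 37 nodes and from 0.22 to 4.78 on 38 spleens of mice with LL2, MC38, EL4 or B16 tumours. On the arrays labelled as tumour-free female nodes it was -1.28 for animal 1, 0.91 for animal 2, -1.83 for animal 3 and 2.11 for animal 4. Arrays 2 and 4 thus lay among the spleens, array 3 among the nodes, and array 1 just above the range of the nodes. The array of animal 5 had -0.61. Among the arrays labelled as spleens of the same females, animals 1 and 3 had -1.84 and -1.59, within the range of the nodes, while animals 2, 4 and 5 had 2.25, 0.06 and 0.68, that of animal 4 just below the range of the spleens. The 5 nodes of tumour-free males had -2.10 to -1.79. No array was moved to another group. The counts of called genes that rest on arrays 2 and 4 are given with them and without them. Some single genes and lists are given against arrays 1 to 4 only.

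**Figure D1:**
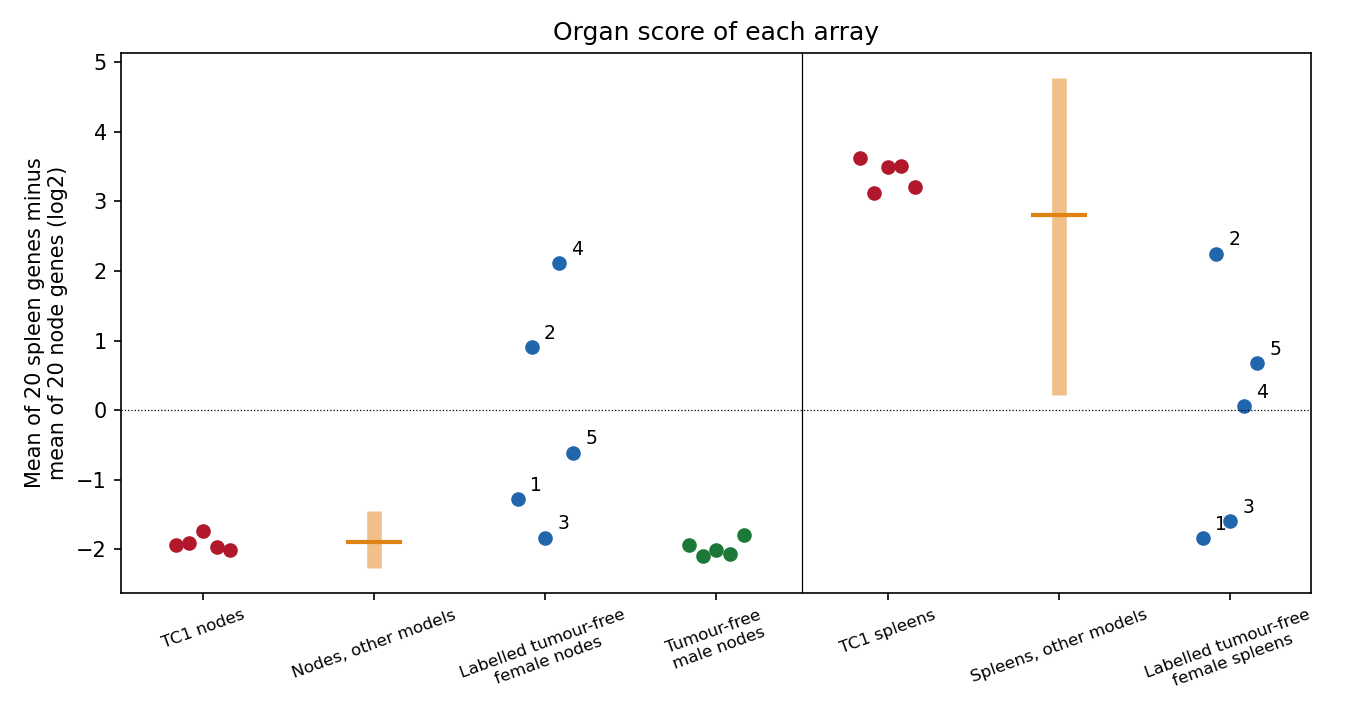
Organ score of each array, the mean log2 value of 20 spleen genes minus that of 20 node genes (vertical axis). Points are arrays, numbers are animals of the tumour-free females, and bars give the range and the line the median over mice with other tumours. Arrays labelled tumour-free node 2 and 4 lie above 0 and arrays labelled tumour-free spleen 1 and 3 below it.

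Over the 39 gene lists that cover cell types and pathways, the lists of blood cells moved with these arrays. The erythroid list, whose members include band 3 and other red cell proteins, had mean log2 levels of 4.78 to 4.96 in TC1 nodes, against 4.78 and 4.86 on tumour-free arrays 1 and 3 and 5.64 and 6.69 on arrays 2 and 4. The neutrophil list lay at 4.64 to 5.07 in TC1 nodes, at 4.63 and 4.85 on arrays 1 and 3, and at 6.05 and 6.18 on arrays 2 and 4. T cell genes ran the other way, with 7.28 to 7.57 in TC1 nodes, 7.80 and 7.66 on arrays 1 and 3, and 7.06 and 6.72 on arrays 2 and 4. The fat list, which was used to choose the controls and was not tested, had 4.82, 6.76, 6.13, 4.88 and 4.58 in TC1 nodes 19, 20, 22, 23 and 24, against 6.03, 4.77, 6.17 and 4.73 on tumour-free arrays 1 to 4 and 8.35 on array 5. TC1 nodes 20 and 22 and tumour-free arrays 1 and 3 therefore held the higher levels of fat genes, and their part in the results was not tested. In tissue samples, fewer cells of a type and less RNA per cell cannot be told apart. The sample numbers in the labels ran from 191 to 203 for the TC1 nodes and from 232 to 238 for tumour-free nodes 1 to 4, and whether these numbers follow an order of processing is not given.

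Against tumour-free arrays 1 to 4, 16 of 11971 genes tested were called (0.134%), 10 of them higher (0.0835%) and 6 lower (0.0501%) in TC1 nodes. A call needed a Benjamini-Hochberg adjusted p under 0.05 in limma and a log2 fold change of at least 1 in size. The spread of a gene was estimated over all node groups, so these p do not measure the spread of the tumour-free arrays alone. When only the compared groups were fitted, 3 genes were called, of which Rpl36 and Il22ra2 are not marker genes. At an unadjusted p under 0.05 there were 635 genes, and the genes tested had a median log2 fold change of 0.02. The count includes Il33 and Ccl12, which are described without a p, and is 14 of 11969 without them. The genes higher in TC1 nodes were Ccl12, Il33, Sfrp2, Lyve1, Has2, Mmp3, Rgs5, Serpina10, Rpl36 and Pde7b. The genes lower were Slc40a1, Ppbp, Gdpd2, Slc4a1, Mpo and Fcna. Of the 16 genes, 14 differed by at least 1 on the log2 scale between spleens and nodes of LL2, MC38 and EL4 mice, and all 14 did so with the sign opposite to that of the TC1 difference, whereas 2.23% of the genes tested had such an organ difference.

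Against tumour-free arrays 1 and 3 alone, which was chosen after the data were seen, 1 of 11711 genes was called (0.00854%), the ribosomal protein gene Rpl36, and 420 genes had an unadjusted p under 0.05. Against the 5 nodes of tumour-free males, also chosen later and with sex differing between the groups, 2 of 12066 genes were called (0.0166%). These were the Y-linked genes Kdm5d and Eif2s3y, both lower in the TC1 nodes, and 256 genes had an unadjusted p under 0.05. Without array 4 alone, Rpl36 was the only gene called, and without array 2 alone 5 genes were called, Rpl36, Lyve1 and Pde7b of the 16 and also Atp5g2 and H2-Aa. All TC1 nodes lay above all of tumour-free arrays 1 to 4 for 5 of the 16 genes, namely Il33, Has2, Mmp3, Serpina10 and Rpl36, where 2.66% of the genes tested did so, 0.961% lay below all 4 arrays and 3.62% did either. The same 5 lay above arrays 1 and 3, where 9.94% of genes did so, 4.53% lay below and 14.5% did either. Il33 alone of the 16 lay above arrays 1 and 3 and the 5 male nodes, 7 arrays in all, where 0.485% of genes did so, 0.0919% lay below and 0.576% did either. These arrays chose the genes, so nothing is read from the counts.

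**Figure D2:**
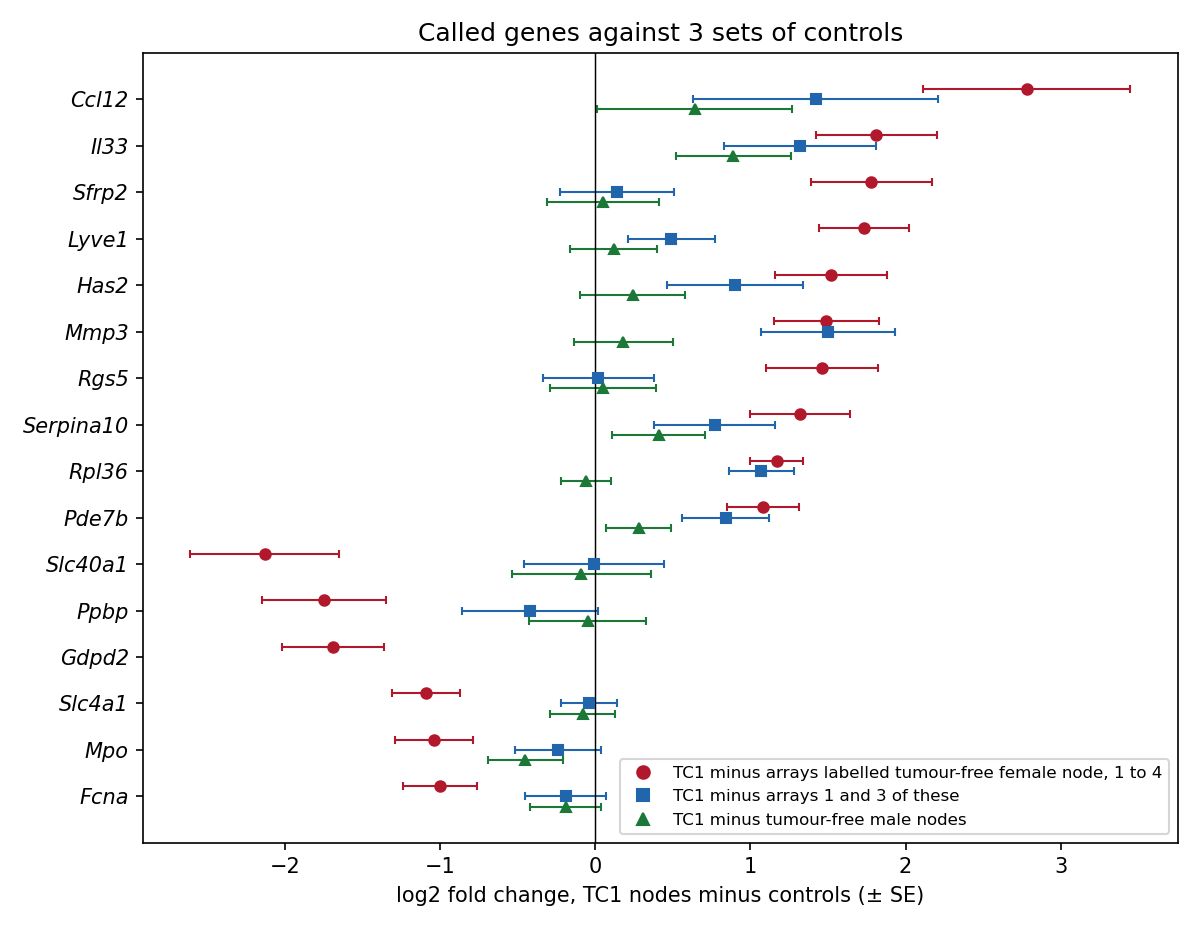
Log2 fold change of the 16 called genes, TC1 nodes minus controls, with its standard error (horizontal axis), for tumour-free arrays 1 to 4, for arrays 1 and 3 of these and for tumour-free male nodes. Sfrp2, Rgs5, Slc40a1 and Slc4a1 lie near 0 against arrays 1 and 3, while Ccl12, Il33, Mmp3 and Rpl36 stay above 1. Gdpd2 was not tested in the last 2 comparisons.

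Il33 (Entrez Gene 77125, chromosome 19, 29925113 to 29960718, GRCm38.p6) had log2 values of 7.24, 7.47, 7.11, 7.68 and 7.46 in TC1 nodes 19, 20, 22, 23 and 24, against 5.39, 4.79, 6.76 and 5.40 on tumour-free arrays 1 to 4. Every TC1 node lay above every tumour-free array, and the tumour-free array closest to them was array 3, one of those with node levels of the organ genes. The fitted log2 difference was 1.81 ± 0.39 against arrays 1 to 4 and 1.32 ± 0.49 against arrays 1 and 3. Nodes of tumour-free males had 6.25 to 6.78, which left a difference of 0.89 ± 0.37. The gene was lower in spleen, with 5.27 to 6.41 in the TC1 spleens, and high in the TC1 tumours, with 7.35 to 8.02. Across the 18 groups of nodes, TC1 nodes had the second highest mean, 7.39 ± 0.22 (SD, n = 5), after LL2 nodes with 7.68 ± 0.30 and before TRAMPC2 nodes with 7.25 ± 0.34. The arrays of these 3 groups overlapped. The tumour-free groups took places 12, 15, 16 and 17, with means of 6.62 (BALB/c females), 6.50 (C57BL/6J males), 6.26 (DBA/2J females) and 5.58 (C57BL/6J females, arrays 1 to 4), and Renca nodes were last with 5.48 ± 1.47.

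The array does not separate the 2 start sites that RefSeq lists for Il33, and their promoters are shown with that of Ccl12 because these genes had the highest fold changes. Each stretch runs from 250 bases before to 50 bases after the start on the plus strand of GRCm38.p6, from RefSeq, with the letters TATAAA, as in a TATA box, in capitals. They lie shortly before the start in the second Il33 stretch and in that of Ccl12, and far before it in the first Il33 stretch, away from where a TATA box stands. Searched on both strands, the letters were found in 13.6% of 32851 promoters of this length in the RefSeq table.
Il33, chr19:29924863-29925162: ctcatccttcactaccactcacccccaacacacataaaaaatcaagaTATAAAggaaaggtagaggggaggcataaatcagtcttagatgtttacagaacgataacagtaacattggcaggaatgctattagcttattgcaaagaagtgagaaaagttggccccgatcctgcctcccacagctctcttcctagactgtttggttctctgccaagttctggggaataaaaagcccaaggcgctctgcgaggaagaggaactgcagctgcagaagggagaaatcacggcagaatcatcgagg
Il33, chr19:29945540-29945839: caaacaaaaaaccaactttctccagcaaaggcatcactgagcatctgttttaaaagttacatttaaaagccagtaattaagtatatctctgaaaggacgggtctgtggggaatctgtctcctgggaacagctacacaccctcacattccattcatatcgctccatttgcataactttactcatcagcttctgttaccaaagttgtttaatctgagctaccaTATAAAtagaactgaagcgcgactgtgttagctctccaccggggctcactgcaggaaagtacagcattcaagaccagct
Ccl12, chr11:82101595-82101894: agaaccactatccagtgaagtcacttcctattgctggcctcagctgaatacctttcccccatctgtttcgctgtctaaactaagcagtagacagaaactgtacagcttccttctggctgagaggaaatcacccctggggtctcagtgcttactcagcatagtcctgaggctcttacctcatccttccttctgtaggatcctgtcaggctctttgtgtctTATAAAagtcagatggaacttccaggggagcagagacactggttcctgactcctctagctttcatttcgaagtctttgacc
Entries were found for 10 of the 16 called genes. Has2, Lyve1, Serpina10, Rpl36, Slc40a1 and the red cell gene Slc4a1 had none, so no motif was searched in their promoters. The GATA factor motif AGATAA, searched on both strands because red cell genes often carry it, was found in the promoter of Rgs5, in no other entry of the called genes, and in 11.2% of all promoters.

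No other gene of the Il33 pathway passed the test. Of 14 genes on the list of Il33 and type 2 alarmins, 11 were measured. Of the 8 tested besides Il33, 0 were called, where 0.134% of all genes were, and 4 were higher, with a median log2 fold change of 0.04 against 0.02 for all genes. The co-receptor Il1rap lay at 4.76 to 5.26 in TC1 nodes and at 4.73 to 4.91 on tumour-free arrays 1 to 4. The interleukin 4 receptor chain Il4ra had 7.87 to 8.00 in TC1 nodes, against 7.09 to 7.86 on arrays 1 to 4 and 7.55 to 7.96 in male nodes.

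Ccl12 (Entrez Gene 20293, chromosome 11, 82101845 to 82103399) had log2 values of 7.65, 7.16, 6.28, 6.71 and 6.89 in TC1 nodes 19, 20, 22, 23 and 24, against 4.69, 1.85, 6.35 and 3.72 on tumour-free arrays 1 to 4. TC1 node 22 lay below tumour-free array 3, and the lowest tumour-free values were those of arrays 2 and 4. The fitted log2 difference was 2.78 ± 0.67 against arrays 1 to 4, 1.42 ± 0.79 against arrays 1 and 3, and 0.64 ± 0.63 against male nodes, which had 5.77 to 6.90 and overlapped the TC1 nodes. TC1 spleens had 2.13 to 3.59. TC1 nodes had the sixth highest of 18 group means, 6.94 ± 0.51 (SD, n = 5), next to LL2 nodes with 6.97 ± 0.51 and P815 nodes with 6.89 ± 0.78. The other 17 group means ran from 4.15 ± 1.88 in tumour-free C57BL/6J females, arrays 1 to 4, to 7.87 ± 1.71 in Renca nodes, and every group other than these tumour-free females had a mean of at least 6.30.

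**Figure D3:**
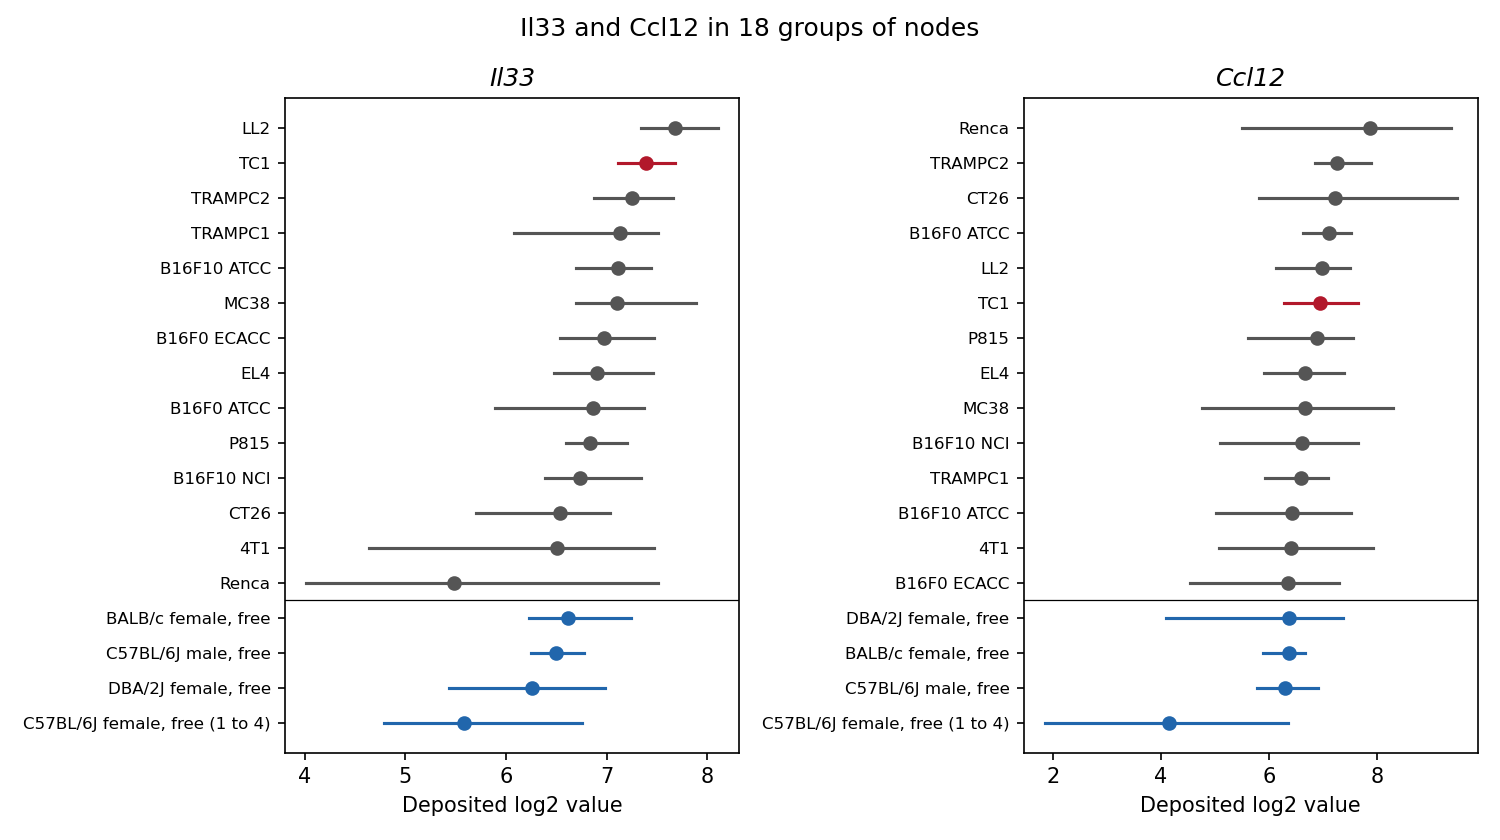
Log2 values of Il33 and Ccl12 in 18 groups of nodes, those of tumour-bearing mice above the line and those of tumour-free mice below it. Points are group means and lines run from the lowest to the highest array. TC1 nodes have the second highest mean of Il33 and the sixth highest of Ccl12.

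The neighbouring chemokine Ccl8, which also attracts monocytes, had 6.10, 6.17, 6.03, 5.67 and 5.96 in TC1 nodes, against 3.96, 3.81, 5.58 and 3.78 on tumour-free arrays 1 to 4. The log2 difference of 1.71 ± 0.45 did not pass the test (limma adjusted p = 0.0962). Male nodes had 5.61 to 7.91, and the difference from them was -0.64. The receptor Ccr2 lay at 6.39 to 7.18 in TC1 nodes, 6.28 to 6.77 on arrays 1 to 4 and 6.61 to 7.44 in male nodes.

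Over the 92 node arrays the genes whose log2 values followed Il33 most closely were Gpr171 (Pearson r = 0.74), Dsc3 (0.74), Lrrk2 (0.74), Fcrl1 (0.73) and Cfb (0.72). Those nearest to Ccl12 were the scavenger receptor Msr1 (0.70), S100a4 (0.68), Pdpn (0.67), Cd63 (0.67) and the lysosomal protease Lgmn (0.67). Without tumour-free arrays 2 and 4 these values ran from 0.69 to 0.81 for Il33 and from 0.65 to 0.78 for Ccl12. The arrays share strains, tumours and the tissue carried along at dissection, so these values describe the set of arrays only.

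Among genes of the matrix and its cells, Sfrp2, a secreted modulator of Wnt signalling made by fibroblasts, had 7.25, 7.08, 7.01, 6.87 and 7.03 in TC1 nodes, against 6.85, 3.42, 6.97 and 3.84 on tumour-free arrays 1 to 4. Arrays 1 and 3 stood level with the TC1 nodes and arrays 2 and 4 well below them. The log2 difference was 1.78 ± 0.39 against arrays 1 to 4 (limma adjusted p = 0.0146) and 0.14 against arrays 1 and 3. The spread behind this p was estimated over all node groups, while the SD of Sfrp2 on arrays 1 to 4 was 1.9. When only the compared groups were fitted, the limma adjusted p was 0.361. Has2, which makes hyaluronan, had 5.85, 5.50, 5.72, 5.14 and 5.62 in TC1 nodes, against 4.62, 3.74, 4.71 and 3.10 on arrays 1 to 4. All TC1 nodes lay above all 4 arrays, with a difference of 1.52 ± 0.36 (limma adjusted p = 0.0329), which was 0.90 against arrays 1 and 3 and 0.24 against male nodes. Mmp3, a protease of the matrix, had 5.86, 4.94, 4.35, 5.26 and 5.20 in TC1 nodes, against 3.13, 3.67, 4.13 and 3.61 on arrays 1 to 4. Its difference was 1.49 ± 0.34 (limma adjusted p = 0.0268) and as large against arrays 1 and 3, where it did not pass the test (SE 0.43, limma adjusted p = 0.548). All 4 tumour-free values lay below 4.30, the value that 4 arrays had to exceed for a test. Mmp3 thus entered the test only through the TC1 nodes, where it was high, and its p is not read as support. Male nodes had 4.52 to 5.48, within the range of the TC1 nodes.

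Among genes of vessels, 2 were called. Lyve1, the hyaluronan receptor of lymphatic endothelium, had 6.97, 6.77, 7.25, 7.00 and 7.15 in TC1 nodes, against 6.29, 4.29, 6.79 and 3.80 on tumour-free arrays 1 to 4. Its log2 difference was 1.73 ± 0.29 against arrays 1 to 4 (limma adjusted p = 0.000296), 0.49 against arrays 1 and 3 and 0.12 against male nodes. When only the compared groups were fitted, the limma adjusted p of Lyve1 against arrays 1 to 4 was 0.241. Lyve1 was the only one of 6 tested genes of the lymphatic endothelium list to be called, where 0.134% of all genes were. Of the 6, 2 were higher in TC1 nodes, where 6524 of the 11971 genes tested were. The level of that list did not follow Lyve1, with 5.43 to 5.55 in TC1 nodes and 5.12, 5.20, 6.08 and 5.17 on arrays 1 to 4. Rgs5, a signalling regulator of pericytes, had 7.83, 7.52, 7.77, 7.84 and 7.94 in TC1 nodes, against 7.71, 4.81, 7.80 and 4.94 on arrays 1 to 4. The difference of 1.46 ± 0.36 (limma adjusted p = 0.0402, and 0.394 when only the compared groups were fitted) was 0.02 against arrays 1 and 3. Both genes thus stood at the level of the TC1 nodes, or just below it, on arrays 1 and 3.

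The other 3 higher genes differed from one another. Serpina10, an inhibitor of coagulation factor X, had 6.22, 6.68, 6.44, 6.39 and 6.48 in TC1 nodes, against 5.94, 4.66, 5.40 and 4.48 on tumour-free arrays 1 to 4, a log2 difference of 1.32 ± 0.32 (limma adjusted p = 0.0405) that was 0.77 against arrays 1 and 3. Pde7b, which breaks down cyclic AMP, had 6.25, 6.41, 6.26, 6.24 and 5.69 in TC1 nodes, against 4.90, 5.01, 5.76 and 4.70 on arrays 1 to 4, a difference of 1.08 ± 0.23 (limma adjusted p = 0.0108) that was 0.84 against arrays 1 and 3. TC1 node 24 was the lowest of its group for Pde7b and lay below tumour-free array 3. Rpl36, a protein of the large ribosomal subunit, had 10.95, 10.81, 10.91, 10.55 and 10.98 in TC1 nodes, against 9.54, 9.75, 10.01 and 9.39 on arrays 1 to 4. The difference was 1.17 ± 0.17 (limma adjusted p = 6.92e-06), and 1.07 ± 0.21 against arrays 1 and 3 (limma adjusted p = 0.022). Against male nodes, which had 10.50 to 11.28, it was -0.06. The tumour-free females had the lowest mean of Rpl36 among the 18 node groups, 9.67 ± 0.27 (SD, n = 4), and their spleen arrays 1 to 4 had 9.87 to 10.19, against 10.48 to 10.94 in TC1 spleens, so that both organs of the tumour-free females had the lower level. Ribosomal protein genes have near-identical copies in the genome, and the probes could take up signal from them.

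**Figure D4:**
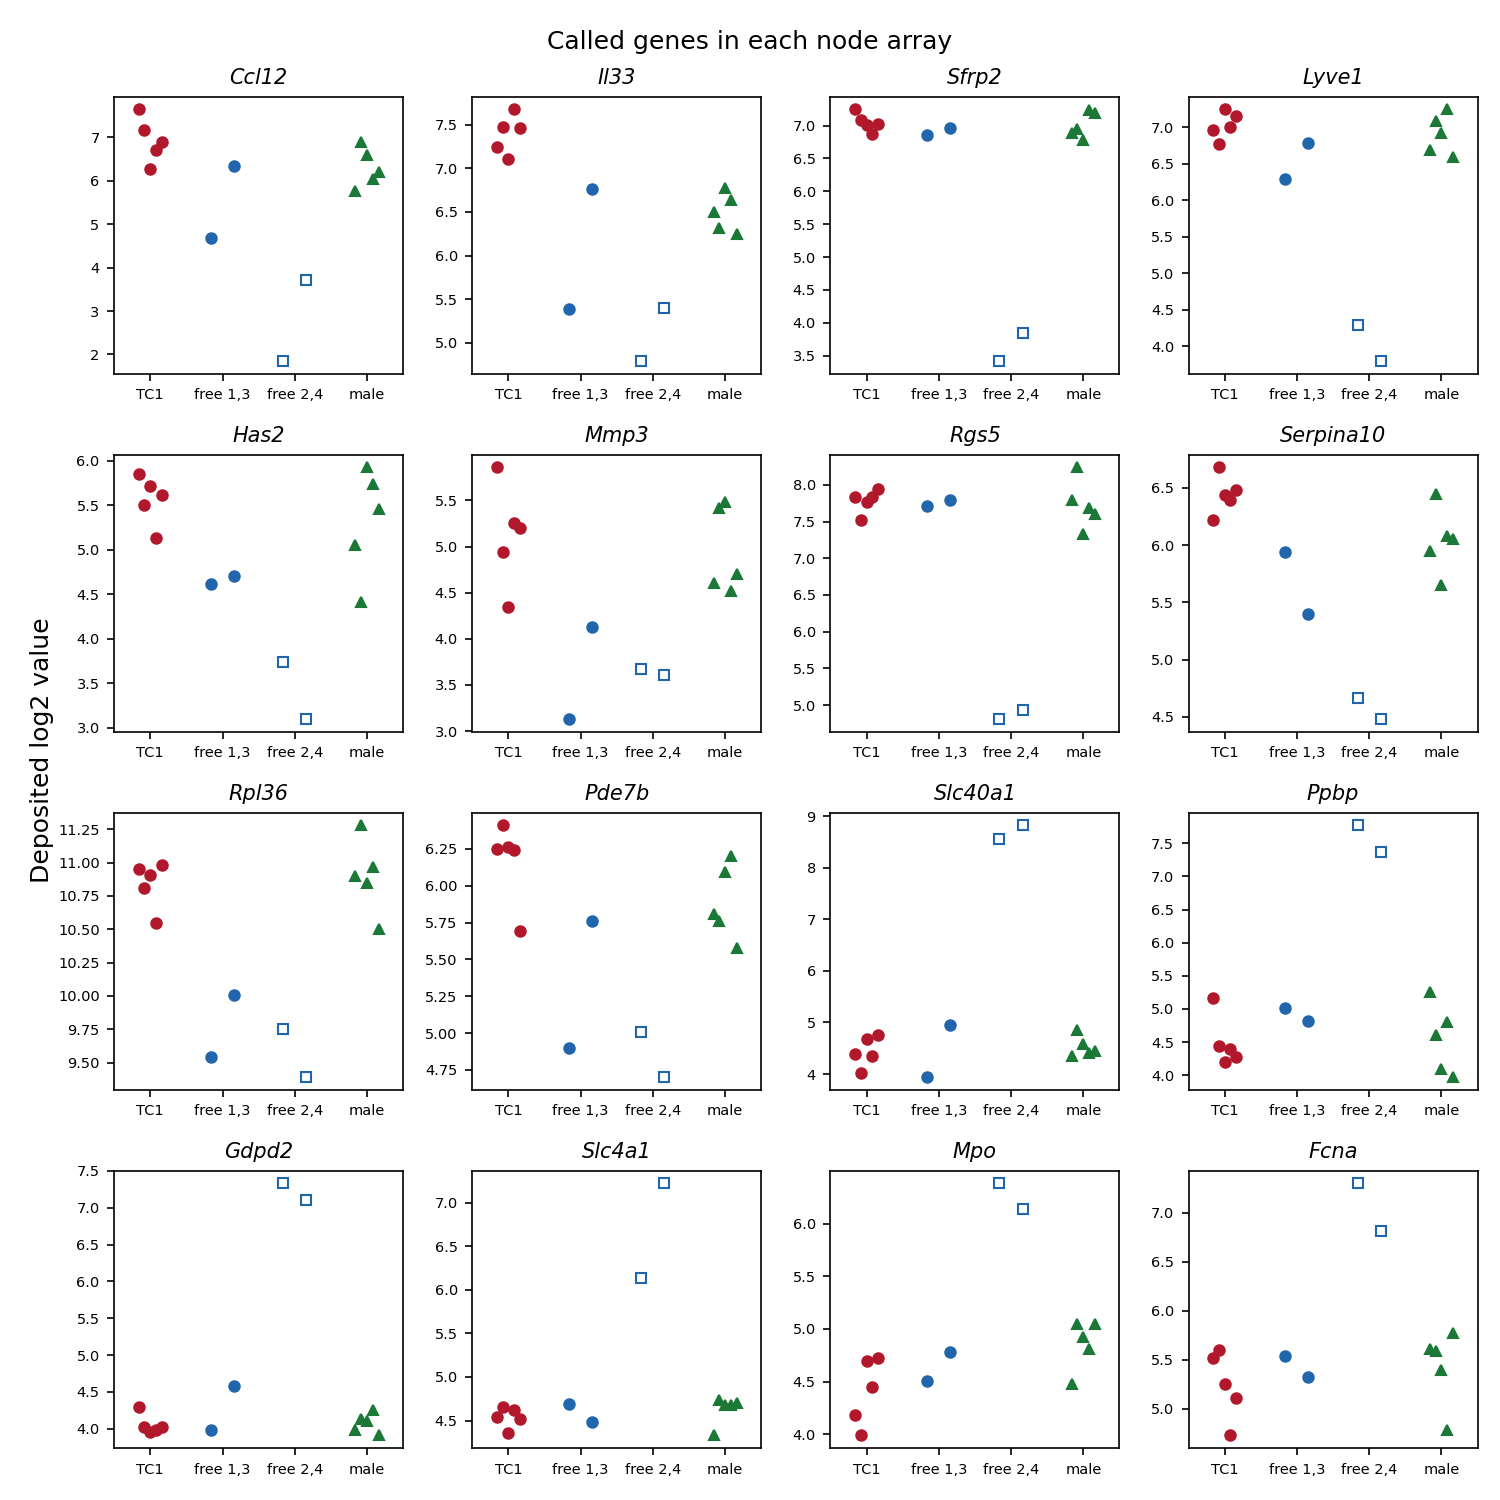
Log2 values of the 16 called genes on each node array (vertical axes), for TC1 nodes, tumour-free female arrays 1 and 3, tumour-free female arrays 2 and 4 (open squares) and tumour-free male nodes. For the 6 lower genes, arrays 2 and 4 stand above all other arrays, and for Sfrp2, Lyve1 and Rgs5 below them.

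The 6 lower genes were high on arrays 2 and 4 and not on arrays 1, 3 and 5 of the tumour-free nodes. Slc40a1, the iron exporter ferroportin of macrophages that recycle red cells, had 4.38, 4.03, 4.68, 4.35 and 4.76 in TC1 nodes, against 3.94, 8.56, 4.95 and 8.82 on arrays 1 to 4. Its log2 difference was -2.13 ± 0.48 (limma adjusted p = 0.0241), and -0.01 against arrays 1 and 3. Slc4a1, the band 3 anion exchanger of red cells, had 4.54, 4.66, 4.36, 4.62 and 4.52 in TC1 nodes, against 4.69, 6.14, 4.48 and 7.22 on arrays 1 to 4, a difference of -1.09 ± 0.22 (limma adjusted p = 0.00639) that was -0.04 against arrays 1 and 3. The platelet chemokine Ppbp differed by -1.75 ± 0.40 (limma adjusted p = 0.0252), with 4.20 to 5.17 in TC1 nodes and 5.01, 7.77, 4.82 and 7.37 on arrays 1 to 4. Gdpd2, a glycerophosphodiesterase, differed by -1.69 ± 0.33 (limma adjusted p = 0.00384), with 3.96 to 4.30 in TC1 nodes and 3.98, 7.33, 4.58 and 7.11 on arrays 1 to 4. A test asked for more than 4.30 on 4 arrays, which arrays 2, 3 and 4 exceeded, with the highest TC1 node at that value. Gdpd2 thus entered the test mainly through the tumour-free arrays, where it was high, and its p is not read as support. The neutrophil enzyme Mpo differed by -1.04 ± 0.25 (limma adjusted p = 0.0402) and the lectin Fcna, made by macrophages, averaged 5.24 in TC1 nodes, with 5.54, 7.30, 5.33 and 6.81 on arrays 1 to 4 (limma adjusted p = 0.0383). Against arrays 1 and 3 the difference was -0.42 for Ppbp, -0.24 for Mpo and -0.19 for Fcna, and Gdpd2 was not tested. On arrays 1 and 3 the 6 genes lay at or near the levels of the TC1 nodes, and TC1 spleens had 7.59 to 8.29 for Slc40a1 and 8.94 to 9.83 for Slc4a1.

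No list held more than 1 called gene, and the called members, apart from the marker genes, were Lyve1, Mpo, Slc4a1 and Ppbp. The lists held 477 genes, of which 386 were measured. Of all genes tested, 0.134% were called and 6524 of 11971 were higher against arrays 1 to 4. Against arrays 1 and 3 these shares were 0.00854% and 6621 of 11711, and they apply to every list below. The direction of the T cell list depended on which arrays stood as controls. Of its genes, 10 of 12 tested were higher in TC1 nodes against arrays 1 to 4, with a median of 0.12, while 1 of 12 was higher against arrays 1 and 3, with a median of -0.28, and the median against male nodes was -0.15. None was called in any of the 3.

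B cell genes were higher with either set of controls without passing the test. Of 10 tested, 9 were higher against arrays 1 to 4 and 10 against arrays 1 and 3, with medians of 0.27 and 0.50 where all genes had 0.02 and 0.03, and 0.25 against male nodes. The list level was 8.10, 8.11, 8.12, 7.99 and 8.09 in TC1 nodes, against 7.57, 8.27, 7.62 and 7.91 on tumour-free arrays 1 to 4 and 7.68 to 7.87 in male nodes. All 5 TC1 nodes lay above arrays 1 and 3 and above every male node, and below array 2. Pax5, the transcription factor that fixes B cell identity, had 8.41 to 8.63 in TC1 nodes, against 7.82, 8.44, 7.83 and 7.79 on arrays 1 to 4 and 7.43 to 8.15 in male nodes (log2 difference 0.58 ± 0.50 against arrays 1 to 4). Cxcl13, the chemokine that draws B cells into follicles, had 9.47 to 9.67 in TC1 nodes, against 8.82 to 9.06 on arrays 1 to 4 and 8.97 to 9.38 in male nodes, a difference of 0.60 ± 0.81 against arrays 1 to 4. The germinal centre gene Bcl6 had 6.81 to 7.14 in TC1 nodes, against 5.84 to 6.64 on arrays 1 to 4 and 6.50 to 7.08 in male nodes (difference 0.68 ± 0.23, limma adjusted p = 0.36). Its list did not hold this direction with both sets of controls. Of 7 germinal centre genes tested, 6 were higher against arrays 1 to 4, with a median of 0.12. Against arrays 1 and 3, 3 of 7 were higher, with a median of -0.02, and the median against male nodes was 0.13.

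Cell cycle genes showed a similar pattern. Of 14 tested, 12 were higher in TC1 nodes against arrays 1 to 4 and 13 against arrays 1 and 3, with medians of 0.24 and 0.49, and 0 were called in either. The list level was 5.69, 5.92, 6.12, 5.87 and 5.88 in TC1 nodes, against 5.17, 5.71, 5.52 and 6.27 on tumour-free arrays 1 to 4 and 5.25 to 5.67 in male nodes. Array 4, with spleen levels of the organ genes, was the highest of all. Ccna2, the cyclin that drives S phase, had 5.90 to 6.55 in TC1 nodes, against 4.90, 6.41, 5.06 and 6.89 on arrays 1 to 4 and 4.82 to 5.55 in male nodes. Its difference was 0.35 ± 0.38 against arrays 1 to 4 and 1.18 ± 0.45 against arrays 1 and 3.

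MHC class II genes, which present antigen to CD4 T cells, were lower on tumour-free arrays 1, 3 and 4 than in any TC1 or male node. The list level was 9.07 to 9.26 in TC1 nodes, against 8.30, 9.15, 8.70 and 8.59 on tumour-free arrays 1 to 4, 7.24 on array 5 and 9.03 to 9.22 in male nodes. Nodes of the other tumour models had 8.75 to 9.64. H2-Aa had 9.94 to 10.01 in TC1 nodes, against 8.62, 10.05, 9.26 and 9.02 on arrays 1 to 4 and 9.83 to 10.02 in male nodes, with a difference of 0.74 ± 0.22 (limma adjusted p = 0.197). H2-DMa differed by 0.93 ± 0.27 (limma adjusted p = 0.184), and by 0.15 from male nodes. None of the 6 genes tested was called.

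Type I interferon targets were higher for 11 of 12 genes tested against arrays 1 to 4 and for 12 of 12 against arrays 1 and 3, with medians of 0.31 and 0.38 and 0 calls. TC1 node 20 had the highest list level, 6.43, the other TC1 nodes 5.68 to 6.02, tumour-free arrays 1 to 4 had 5.58 to 5.85 and male nodes 5.54 to 5.99. Zbp1, a sensor of nucleic acids, had 7.35 to 8.11 in TC1 nodes, against 6.67 to 7.27 on arrays 1 to 4 and 7.06 to 7.70 in male nodes (difference 0.63 ± 0.285, limma adjusted p = 0.801). Macrophage and monocyte genes had a median difference of 0.03 against arrays 1 to 4 and of -0.47 against male nodes, with list levels of 6.25 to 6.53 in TC1 nodes and 6.76 to 7.14 in male nodes.

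Heat shock genes, which encode chaperones, had the lower values in TC1 nodes without passing the test. Of 9 tested, 0 were higher against arrays 1 to 4, with a median of -0.20, and 1 of 9 was higher against arrays 1 and 3, with a median of -0.25. The list level was 7.30, 7.57, 7.43, 7.68 and 7.43 in TC1 nodes, against 7.69, 7.83, 7.76 and 7.74 on tumour-free arrays 1 to 4 and 7.29 to 7.83 in male nodes. All TC1 nodes lay below the 4 arrays and overlapped the male nodes, from which the median difference was 0.04. Cholesterol synthesis genes were higher for 2 of 11 tested, with a median of -0.16. Genes of fibroblasts and matrix were higher for 9 of 12 tested, with a median of 0.27, and those of reticular stroma for 8 of 9, with a median of 0.07. Plasma cell genes were higher for 7 of 10 tested, with a median of 0.10, and dendritic cell genes for 4 of 8, with a median of 0.01. None of the genes of these lists was called.

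**Figure D5:**
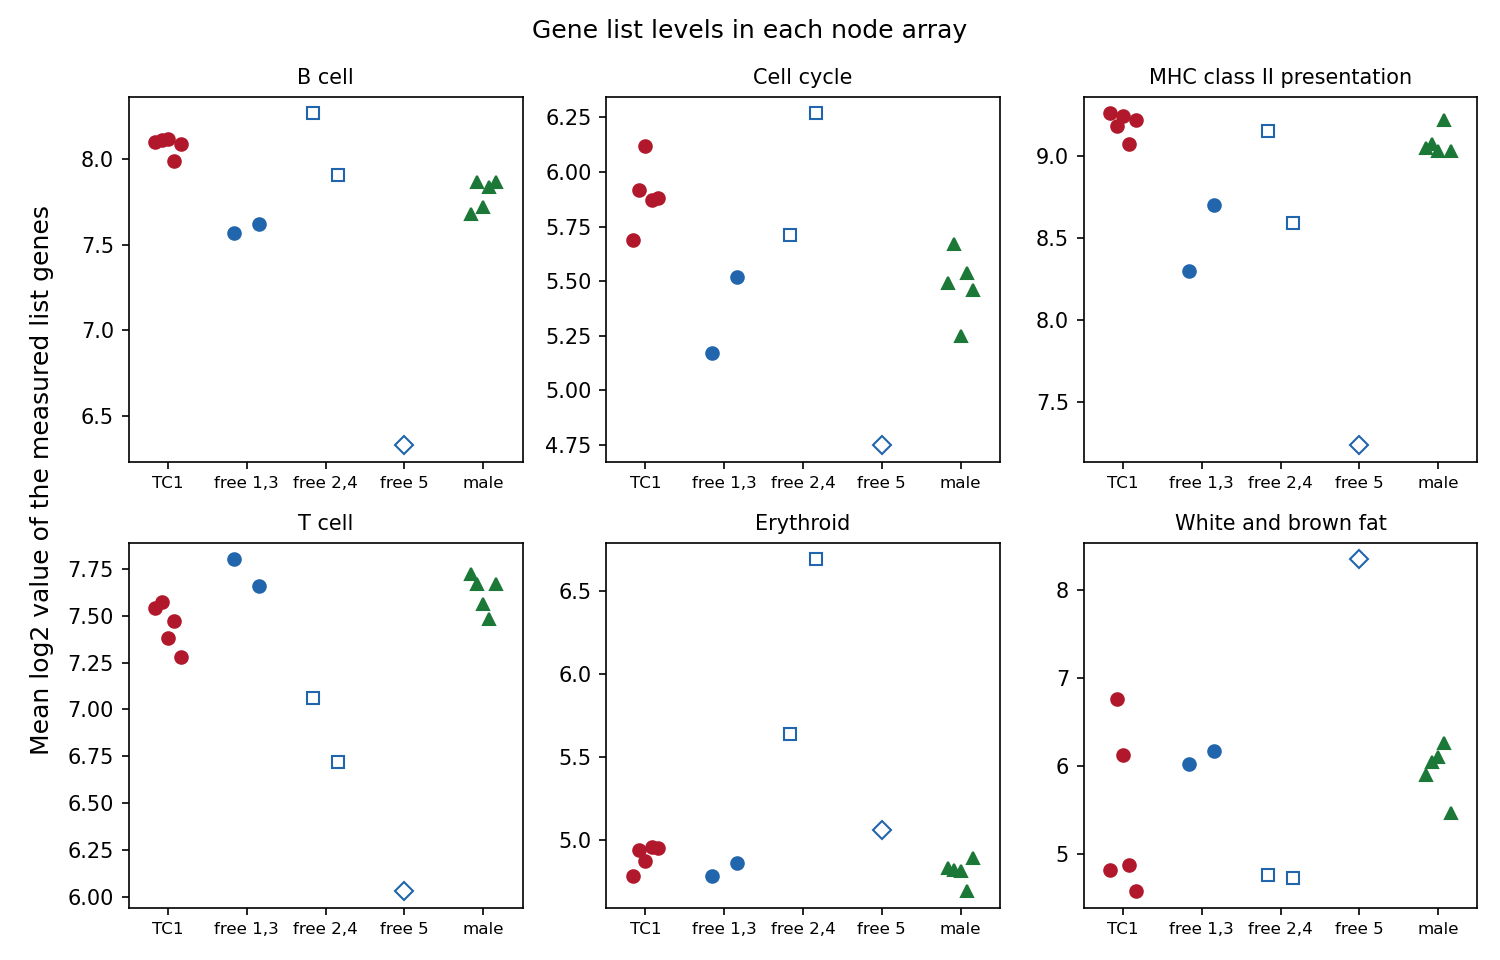
Mean log2 value of the measured genes of 6 lists on each node array (vertical axes), for TC1 nodes, tumour-free female arrays 1 and 3, arrays 2 and 4 (open squares), array 5 (open diamond) and tumour-free male nodes. B cell and cell cycle levels of all TC1 nodes lie above arrays 1 and 3 and the male nodes, and erythroid levels are highest on arrays 2 and 4.

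Genes of the tumour itself lay at like levels in both groups of nodes. The 20 genes most above the other C57BL/6J tumour families in TC1 tumours averaged 4.28 to 4.46 in TC1 nodes and 4.32 to 4.42 on tumour-free arrays 1 to 4, and of the 10 tested 0 were called. Crabp1, a retinoic acid binding protein, had a mean of 4.85 in TC1 nodes, 4.61 on tumour-free arrays 1 to 4 and 12.32 in TC1 tumours. Neto2 had 3.47 in TC1 nodes, 3.06 on arrays 1 to 4 and 8.84 in TC1 tumours. Among other tissues that a dissected node can carry, skeletal muscle genes lay at 4.88 to 5.12 in TC1 nodes and at 4.75 to 5.10 on arrays 1 to 4. Keratinocyte genes lay at 4.62 to 4.74 in TC1 nodes and at 4.47 to 4.72 on arrays 1 to 4. Genes of epithelium, mammary and salivary gland reached 5.83 in TC1 node 20 and 5.12 in node 22, against 4.61 to 4.66 in the other TC1 nodes and 4.70, 4.63, 5.15 and 4.61 on arrays 1 to 4.

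Nodes of other tumour models asked whether the TC1 nodes differed from draining nodes in general. Against the mean of the LL2, MC38, EL4 and B16 families, 37 arrays in all, 0 of 12960 genes were called in limma (0%), with 475 at an unadjusted p under 0.05. The smallest adjusted p was that of Slc6a13, a transporter of GABA and taurine named after its value was seen, with -0.80 ± 0.13 on the log2 scale (limma adjusted p = 0.00112), short of the fold required. The smallest adjusted p of any gene was 0.0631 without TC1 node 24 and 1 without the EL4 family, so that this call of a p under 0.05 rests on them. None of the 16 genes was called here. Il33 differed by 0.24 ± 0.29, Ccl12 by 0.21 ± 0.48, Rpl36 by 0.21 ± 0.12 and Pde7b by 0.56 ± 0.16. Cell cycle genes had a median of -0.35 against the other families, B cell genes of 0.00. This comparison uses the same TC1 arrays as the others and none of the tumour-free arrays.

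The TC1 difference in nodes minus the TC1 difference in spleens was called for 179 of 12467 genes (1.44%), 23 higher (0.184%) and 156 lower (1.25%). Of the called genes named here, the marker genes aside, Sfrp2 had the highest value, 3.16 ± 0.57 (limma adjusted p = 8.64e-05). Lyve1 followed with 3.01 ± 0.56 (limma adjusted p = 0.000132) and Ccl8 with 2.67 ± 0.58 (limma adjusted p = 0.00192). Ccl12 and Il33, given without a test, had 4.66 ± 0.82 and 1.59 ± 0.53. The lowest of the called genes named here were Tspan8, a tetraspanin, with -5.50 ± 1.00 (limma adjusted p = 9.63e-05), and the red cell genes Hemgn with -5.30 ± 0.88 (limma adjusted p = 1.34e-05) and Car2 with -5.20 ± 0.88 (limma adjusted p = 1.7e-05). Hemgn, a nuclear protein of erythroid precursors, had 9.28 to 10.00 in TC1 spleens, against 4.46, 8.71, 4.40 and 4.52 on the arrays labelled tumour-free spleen 1 to 4. In nodes it had 4.29 to 4.92 with TC1 tumours, against 4.41, 5.76, 4.67 and 8.15 on the arrays labelled tumour-free node 1 to 4. A later comparison kept only nodes 1 and 3 and spleens 2 and 4 as controls, of which node 1 and spleen 4 lay just outside the ranges given above. With these controls, 0 of 12324 genes were called in limma (0%), with 371 at an unadjusted p under 0.05. Sfrp2 then had 0.28 ± 0.61, Lyve1 0.39 ± 0.60, Ccl8 1.71 ± 0.72, Car2 -3.08 ± 1.06, Ccl12 2.19 ± 0.98 and Il33 0.52 ± 0.65. Rgs5 had -0.58 ± 0.57 in place of 2.39 ± 0.55.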

How the data were processed

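Mouse exon arrays measured amplified, biotin-labelled RNA of nodes, spleens and tumours, per the labels' protocols. For 17831 probe sets on 283 arrays the authors deposited log2 values made by robust multi-array average (RMA), per the submitters' processing notes. RMA equalises intensity distributions, which can hide a change of most genes and compresses changes of weak ones. Its version is not given in the sources used here. Array medians ran from 5.19 to 5.66. Arrays carry no read depth, and their number limits the precision.

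Probe sets with 1 gene symbol in the platform annotation were used (15620, with 1370 naming several and 841 none), 15559 were matched to RefSeq by gene identifier, and the probe set with the highest mean was kept for each gene. Positions are those of GRCm38.p6. Genes entered a test where 4 or more arrays of the comparison exceeded 4.30, the 25th percentile of the deposited values. Models with 1 mean per group were fitted with limma 3.58.1 in R 4.3.3, on all node arrays together for nodes, and on nodes and spleens together for the difference between organs. Tests were two-sided, ± gives standard errors unless SD is written, and the script was tested on simulated data. Tables and figures were made in Python 3.11.15 with pandas 2.3.3, numpy 2.4.6 and matplotlib 3.10.9.

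The labels name separate animals as replicates. Node and spleen of an animal bear the same number, and their deviations from the group means correlated at -0.05 to 0.09 over 5 TC1 animals and at -0.03 to 0.30 over 4 tumour-free animals. Named genes were up to 12 called genes each way for nodes, up to 6 each way for the other comparisons, called members of the lists or otherwise the members with the highest fold changes, and the 5 genes most like Il33 and Ccl12. Il1rap, Il4ra and Ccr2 were added after their values were seen. The comparison, its marker genes and the lists were chosen with earlier results of these data known. Control subsets were added after the arrays whose organ genes go against their labels were seen.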

Additional observations from a re-analysis of the deposited data

Results flagged for a closer look

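Single arrays stood apart from their group in 6 of 112 groups of values examined by Dixon's ratio, the gap to the nearest array over the range of the group, and chance gives about 1 in 20. In TC1 nodes the ratio was 0.764 for Pde7b, with node 24 low, 0.753 for Ppbp, with node 19 high, 0.831 for Gdpd2, with node 19 high, and 0.811 for the B cell list, with node 23 low. On tumour-free arrays 1 to 4 it was 0.925 for the lymphatic endothelium list and 0.835 for the list of epithelium, mammary and salivary gland, both with array 3 high.

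The TC1 difference in nodes and in spleens was unequal by the fitted contrast for these genes, with the node difference minus the spleen difference on the log2 scale. It was positive for Sfrp2 (3.16), Lyve1 (3.01), Ccl8 (2.67), Rgs5 (2.39), Meox2 (2.22), Has2 (2.03) and Serpina10 (1.83). It was negative for Tspan8 (-5.50), Hemgn (-5.30), Car2 (-5.20), Slc4a1 (-5.01), Ctse (-4.59), Kel (-4.39), Slc40a1 (-4.19), Ppbp (-3.75), Gdpd2 (-3.65), Mpo (-2.31) and Fcna (-2.03). Each was called with tumour-free animals 1 to 4, and 0 genes were called in limma with nodes 1 and 3 and spleens 2 and 4 as the only controls, where 371 had an unadjusted p under 0.05. On these fewer controls Tspan8 had -3.5 ± 1.22, Hemgn -3.0 ± 1.05, Slc4a1 -2.9 ± 0.92, Kel -2.82 ± 0.92 and Ctse -2.78 ± 0.95. Gdpd2 had -0.69 ± 0.52, Slc40a1 -0.46 ± 0.7 and Fcna -0.46 ± 0.38. Each of these was smaller in size than with tumour-free animals 1 to 4, and none was called. Those of Tspan8, Hemgn, Slc4a1, Kel and Ctse stayed larger in size than those of Gdpd2, Slc40a1 and Fcna.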

How the results depend on the processing

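The count of 16 genes between TC1 and tumour-free nodes was within 1.5 times with no filter (18), array medians subtracted (14), quantile normalisation (16), the mean of a gene's probe sets (17) and tumour-free animal 5 added (19, of which 17 were higher). It was 10 with the filter at the 50th percentile, 3 when only the compared groups were fitted (of which 2, Rpl36 and Il22ra2, are not marker genes, with 1205 at an unadjusted p under 0.05) and 33 with array weights. With later-chosen controls it was 1 (tumour-free arrays 1 and 3) and 2 (male nodes). Leaving out 1 animal at a time gave 1 to 37, namely 1 without tumour-free animal 4, 5 without animal 2, 29 without animal 1, 37 without animal 3, 4 without TC1 animal 20, and 8 to 11 without another TC1 animal. For the difference between organs the 179 genes became 76 to 213 on leaving out 1 animal, 76 without tumour-free animal 4 and 110 without animal 3. The count was 257 when only the compared groups were fitted, and 185 with the animal as a replicate block, which changed no call of a named gene. It was 0 with nodes 1 and 3 and spleens 2 and 4 as the only controls. Of these, node 1 and spleen 4 lay just outside the ranges of their organs. Against other tumour models 0 genes were called in every alternative run, and the smallest adjusted p ran up to 1. The sign changed for Rpl36 against male nodes (-0.06 ± 0.16). It also changed for Rgs5 between organs with nodes 1 and 3 and spleens 2 and 4 as the only controls (-0.58 ± 0.57). Neither value passed the test, so neither is a difference in the opposite direction. The cause was not tested. Signal near background limits weak genes such as Mmp3 and Mpo.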
